A study of Homo sapiens with 6 samples.

Results

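Stress granule core proteins are encoded by the 10 genes followed here in 293T cells, namely G3BP1, G3BP2, CAPRIN1, USP10, UBAP2L, TIA1, TIAL1, ATXN2, ATXN2L and PABPC1. The 10 genes were chosen by name around G3BP2, whose difference between the groups in these same libraries was known when the list was drawn up, so their mimic-to-mock values are given as a description and not as evidence for the list. All 10 had counts in every library and passed the filter on low counts, among 15607 tested genes and 26613 genes with a count in any library. The samples were 6 RNA-seq libraries of 293T, a human line of embryonic kidney origin that takes up DNA and RNA easily, grown in high-glucose DMEM with heat-inactivated fetal calf serum. The mimic group (n = 3) had received a miR-941 duplex at 10 nM with Lipofectamine 2000, after plating 24 h earlier. The mock group (n = 3) had received a scrambled oligonucleotide of no stated concentration or sequence. The time from transfection to RNA extraction is not stated either. The libraries came from RNA depleted of ribosomal RNA and were read over 100 bases from 1 end.

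Stress granules are droplets of RNA and protein that form in the cytoplasm when translation initiation stops and mRNAs are released from polysomes. G3BP1 and its paralog G3BP2 bind this RNA and condense with it. Their partners either promote the condensate, as CAPRIN1 and UBAP2L do, or hold it back, as USP10 does by occupying the surface of G3BP that CAPRIN1 also binds. TIA1, TIAL1, the ataxin-2 proteins and the poly(A)-binding protein PABPC1 join the same granules, and PABPC1 is a common marker of them. A microRNA acts on another layer: loaded into an Argonaute protein, it lowers mRNAs whose 3′ UTRs pair with its bases 2 to 8, the seed. The libraries measure mRNA, so neither the proteins nor granules were observed here.

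The sequences show where these mRNAs could pair with the transfected microRNA. The mature miR-941 strand in RefSeq (GRCh38.p14, in 5 hairpins on chromosome 20 between 63919495 and 63919936, plus strand) is printed first, with the seed in capitals. The sites below it lie in GENCODE release 29 transcripts on GRCh38, with the bases that pair with the seed in capitals and 11 flanking bases on each side.
miR-941: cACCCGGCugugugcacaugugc
TIA1, 3′ UTR, chr2:70211027-70211032, minus strand: gcctgcatttcCCGGGTaggggcaaatg
TIAL1, coding sequence, chr10:119579999-119580004, minus strand: atatcggatgcCCGGGTagttaaagaca

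None of the 10 genes held the 7-base site GCCGGGT, complementary to bases 2 to 8 of miR-941, in its longest annotated 3′ UTR, and G3BP1, G3BP2, CAPRIN1, USP10, UBAP2L and ATXN2L held not even the 6-base site CCGGGT there or in the coding sequence. Of 13015 tested genes with a 3′ UTR, 4.87% held the 7-base site and 13.4% the 6-base site, which the 7-base site contains. Both were searched on the mRNA strand. TIA1 had 1 match to CCGGGT followed by A, at base 1687 of its 3275-base 3′ UTR, in the last of 12 exons, a form found in 1.50% of the tested genes. In coding sequences TIAL1, ATXN2 and PABPC1 held the 6-base site, as did 20.3% of 13067 tested genes, and no member held the 7-base site there. These are matches of letters in annotated transcripts and do not show pairing.

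The 3′ UTRs of the members ranged from 480 bases in PABPC1 to 8694 bases in G3BP1, with a median of 2151 against 1401 over all tested genes. Their median content of G and C was 37.5% against 42.6%. Of the members 7 of 10 lay below the median of all genes, which by definition splits the genes evenly. Above it were ATXN2L with the highest value, 57.4%, ATXN2 with 50.2% and UBAP2L with 44.2%. TIA1 had the lowest value, 32.5%.

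In cells given the scrambled oligonucleotide the members covered a wide range of levels. The order was taken on library-scaled counts (CPM) divided by the length of all annotated exons (CPM per kilobase, mean ± SD over 3 mock libraries). PABPC1 led with 85.9 ± 1.83, followed by CAPRIN1 with 64.4 ± 1.36, UBAP2L with 46.5 ± 1.28 and ATXN2L with 36.5 ± 1.33. G3BP1 stood at 24.1 ± 0.36 and USP10 at 22.8 ± 0.68. Below them were G3BP2 at 18.3 ± 0.35, TIAL1 at 16.4 ± 0.71, TIA1 at 12.5 ± 0.35 and ATXN2 at 5.44 ± 0.34. No neighbours in this order overlapped over the mock libraries. PABPC1 lay at percentile 97.5 of 15084 tested genes with a length, G3BP1 at 85.5, G3BP2 at 79.6 and ATXN2 at 44.9.

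The order of levels depends in part on the length used, because which transcripts the cells make was not measured. Divided by the longest transcript instead, CAPRIN1 (121 CPM per kilobase) and PABPC1 (117) exchanged places with overlapping libraries, USP10 (37.8) came above G3BP1 (29.2), and ATXN2 (19.1) and TIA1 (17.8) overlapped. PABPC1, CAPRIN1, UBAP2L and ATXN2L were the upper 4 under both lengths, and G3BP2 was below G3BP1 under both.

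**Figure D1:**
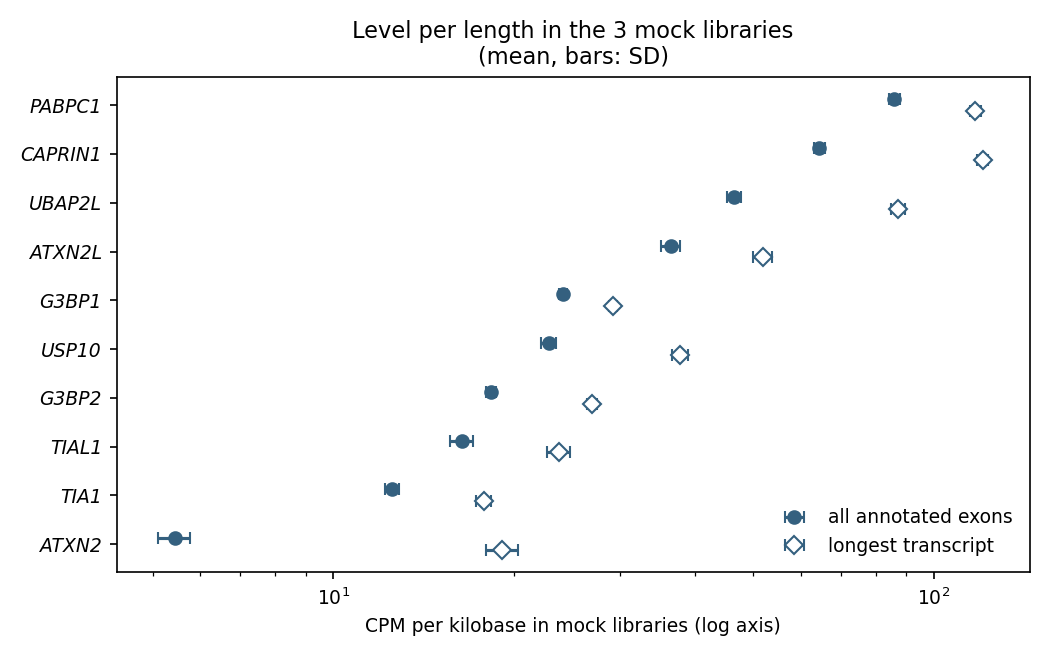
Level of each of the 10 genes in the 3 mock libraries, in CPM per kilobase on a log axis (mean, bars are SD), with all annotated exons (filled circles) or the longest transcript (open diamonds) as the length. PABPC1 and CAPRIN1 are highest under both lengths, and ATXN2 moves most, from 5.44 to 19.1.

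Between the groups, G3BP2 was about 2 times as high after the miR-941 mimic, while its paralog G3BP1 was at nearly the same level. G3BP2 (ENSG00000138757, chromosome 4 from 75642782 to 75724525, minus strand, GRCh38) had 267, 268 and 282 CPM in mimic replicates 1 to 3 and 132, 134 and 129 CPM in mock replicates 1 to 3. CPM is the count relative to the library total scaled with TMM factors. The lowest mimic library was far above the highest mock library, and the spread within either group was small beside the gap. The log2 fold change was 1.05 ± 0.05 (SE), a fold of 2.07, which placed G3BP2 at rank 20 of 1061 risen genes by size and at rank 4 of all tested genes by smallest p. Over 12 alternatives of filter, scaling, tool, design and left-out library the log2 fold change stayed between 1.02 and 1.06, and the gene was called in each.

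G3BP1 (ENSG00000145907, chromosome 5 from 151771045 to 151812785, plus strand) had 283, 298 and 295 CPM in the mimic libraries and 295, 299 and 304 CPM in the mock libraries. The groups overlapped, and the log2 fold change was −0.03 ± 0.05. A test of whether the paralogs differ in response was not made, since G3BP2 was chosen for its own. Reads of the paralogs can be told apart: no stretch of 100 bases is common to their annotated transcripts. G3BP2 shared 3 of its 8146 distinct stretches of that length with GTPBP10 and G3BP1 shared 32 of 12976 with ATOX1, on the opposite strand. Neither partner was called, with log2 fold changes of 0.11 ± 0.09 for GTPBP10 and −0.15 ± 0.10 for ATOX1.

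Within the G3BP genes, G3BP2 supplied 30.9%, 30.9% and 29.8% of the counts of both G3BP genes in mock replicates 1 to 3 and 48.6%, 47.4% and 48.8% in mimic replicates 1 to 3. The exact 95% binomial intervals, which cover counting error only, ran from 28.0% to 32.6% over the mock libraries and from 45.8% to 50.5% over the mimic libraries. The share was thus 30.5 ± 0.67% (SD, n = 3) against 48.2 ± 0.78%. Counted per kilobase of exons, G3BP2 was the smaller part of the G3BP mRNA in the mock group, 43.2 ± 0.78%, and the larger part in the mimic group, 61.7 ± 0.74%. With the longest transcript as the length, the shares were 48.0 ± 0.79% and 66.2 ± 0.70%. The sum of both genes was 427, 432 and 432 CPM in the mock libraries and 551, 565 and 577 CPM in the mimic libraries, 1.31-fold higher on average.

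**Figure D2:**
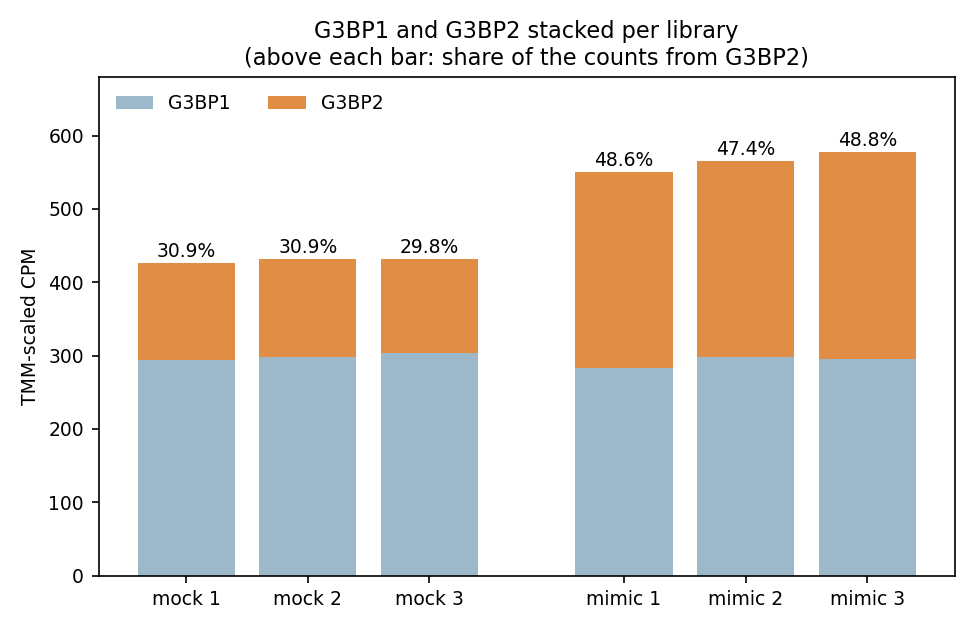
TMM-scaled CPM of G3BP1 (blue) and G3BP2 (orange) stacked for each of the 6 libraries, with the share of G3BP2 in the counts of both genes above each bar; CPM are not divided by gene length, so the colours compare libraries and not genes. The blue parts stay between 283 and 304 CPM, and the orange parts are 129 to 134 CPM in the mock and 267 to 282 CPM in the mimic libraries.

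No partner of G3BP was called in the main test, though UBAP2L lay higher in all mimic than in all mock libraries. CAPRIN1 (ENSG00000135387, chromosome 11 from 34051683 to 34101156, plus strand), whose protein promotes condensation with G3BP, had 457, 448 and 478 CPM in the mimic and 484, 504 and 498 CPM in the mock libraries. The groups did not overlap, but the difference was small, with a log2 fold change of −0.10 ± 0.04, and was not called. It was called as lower in 1 of 12 alternatives, without mimic replicate 3 (−0.13).

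USP10 (ENSG00000103194, chromosome 16 from 84699978 to 84779922, plus strand), the deubiquitinase that binds G3BP and opposes granule assembly, had 111, 111 and 125 CPM in the mimic and 116, 112 and 119 CPM in the mock libraries. Mimic replicate 3 was the highest of all 6 libraries and the other mimic libraries were the lowest. Its log2 fold change was −0.01 ± 0.06 and was not called in any alternative. USP10 shared 14 of 6386 stretches of 100 bases with 3 processed pseudogenes, which together held 13 counts in the 6 libraries against 4818 for USP10.

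UBAP2L (ENSG00000143569, chromosome 1 from 154220179 to 154271510, plus strand), which binds G3BP and is needed for granules to form, had 368, 360 and 435 CPM in the mimic and 359, 347 and 340 CPM in the mock libraries. The groups were separated by less than 1 CPM, between mimic replicate 2 and mock replicate 1, and mimic replicate 3 stood well above the rest. The log2 fold change was 0.15 ± 0.05 and was not called. It was called in 4 of 12 alternatives and was 0.06 without mimic replicate 3.

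Because CAPRIN1 and USP10 share a binding surface on G3BP, their mRNA was also set against the G3BP sum within each library. CAPRIN1 stood at 1.13, 1.17 and 1.15 times the summed CPM of G3BP1 and G3BP2 in the mock libraries and at 0.83, 0.79 and 0.83 times in the mimic libraries. USP10 stood at 0.27, 0.26 and 0.28 times in the mock and at 0.20, 0.20 and 0.22 times in the mimic libraries. Both ratios were lower in all mimic libraries than in all mock libraries. CAPRIN1 and USP10 themselves were not called, while the denominator was 1.31-fold higher. That denominator holds G3BP2, the gene the list was drawn up around. The ratios therefore mainly restate the G3BP2 difference and are not a separate result. The uncalled differences of CAPRIN1 (fold 0.93) and, below, UBAP2L (fold 1.11) also enter their ratios. They are of mRNA in CPM not divided by length, and the balance of the proteins was not tested. UBAP2L, at 0.84, 0.80 and 0.79 times in the mock and 0.67, 0.64 and 0.75 times in the mimic libraries, was also separated, by a narrower gap.

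The TIA proteins, RNA-binding proteins with a prion-like tail that repress translation, were nearly level. TIA1 (ENSG00000116001, chromosome 2 from 70209444 to 70248660, minus strand) had 81.9, 79.1 and 77.3 CPM in the mimic and 80.0, 83.8 and 84.3 CPM in the mock libraries, with a log2 fold change of −0.06 ± 0.06. TIAL1 (ENSG00000151923, chromosome 10 from 119571802 to 119597029, minus strand), which encodes TIAR, had 120, 111 and 106 CPM in the mimic and 126, 120 and 115 CPM in the mock libraries, with a log2 fold change of −0.10 ± 0.06. The groups of both genes overlapped, and neither was called in any alternative. TIA1, the member with a match to the 6-base site in its longest 3′ UTR, printed above, was among these uncalled genes. Exons of TIA1 overlap 211 bases of C2orf42 on the same strand. C2orf42 had 844 counts of its own over all libraries, against 3385 for TIA1, and was not called (−0.05 ± 0.11). Reads in the overlap were not counted apart.

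Of the ataxin-2 proteins, which bind poly(A)-binding protein and mRNA, ATXN2L rose and ATXN2 did not. ATXN2L (ENSG00000168488, chromosome 16 from 28823035 to 28837237, plus strand) had 275, 280 and 296 CPM in the mimic and 227, 242 and 243 CPM in the mock libraries. All mimic libraries were above all mock libraries, with a log2 fold change of 0.26 ± 0.05, a fold of 1.20, and the gene was called in all 12 alternatives, between 0.22 and 0.28. Its exons overlap 2 antisense genes, with which it shares 598 of its 8445 stretches of 100 bases (7.08%). Neither held a count, but whether the annotation used for counting included them is not known. ATXN2 (ENSG00000204842, chromosome 12 from 111443485 to 111599676, minus strand) had 90.2, 82.1 and 97.1 CPM in the mimic and 83.4, 92.9 and 93.1 CPM in the mock libraries. The groups overlapped fully, the means were 89.8 ± 7.50 and 89.8 ± 5.53 CPM, and the log2 fold change was −0.00 ± 0.06. SH2B3, whose exons overlap 69 bases of ATXN2 on the opposite strand, was not called (−0.19 ± 0.11). It had 953 counts of its own over all libraries, against 3740 for ATXN2.

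PABPC1 (ENSG00000070756, chromosome 8 from 100685816 to 100722809, minus strand), which coats poly(A) tails and is bound by the ataxin-2 proteins, had 454, 419 and 487 CPM in the mimic and 413, 414 and 398 CPM in the mock libraries. The groups did not overlap, though mimic replicate 2 lay close to the mock libraries. PABPC1 rose, with a log2 fold change of 0.15 ± 0.05, a fold of 1.11. The call ended in 5 of 12 alternatives, with DESeq2 (0.15) and without mimic replicate 1 (0.15), mimic replicate 3 (0.09), mock replicate 1 (0.16) or mock replicate 3 (0.13), and of these values that without mimic replicate 3 moved by over 1.5 times. PABPC1 shares 64 of 6245 stretches of 100 bases with the near copy PABPC3 and a processed pseudogene. PABPC3 had 421 counts of its own over all libraries, against 17985 for PABPC1, with a log2 fold change of 0.11 ± 0.15.

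**Figure D3:**
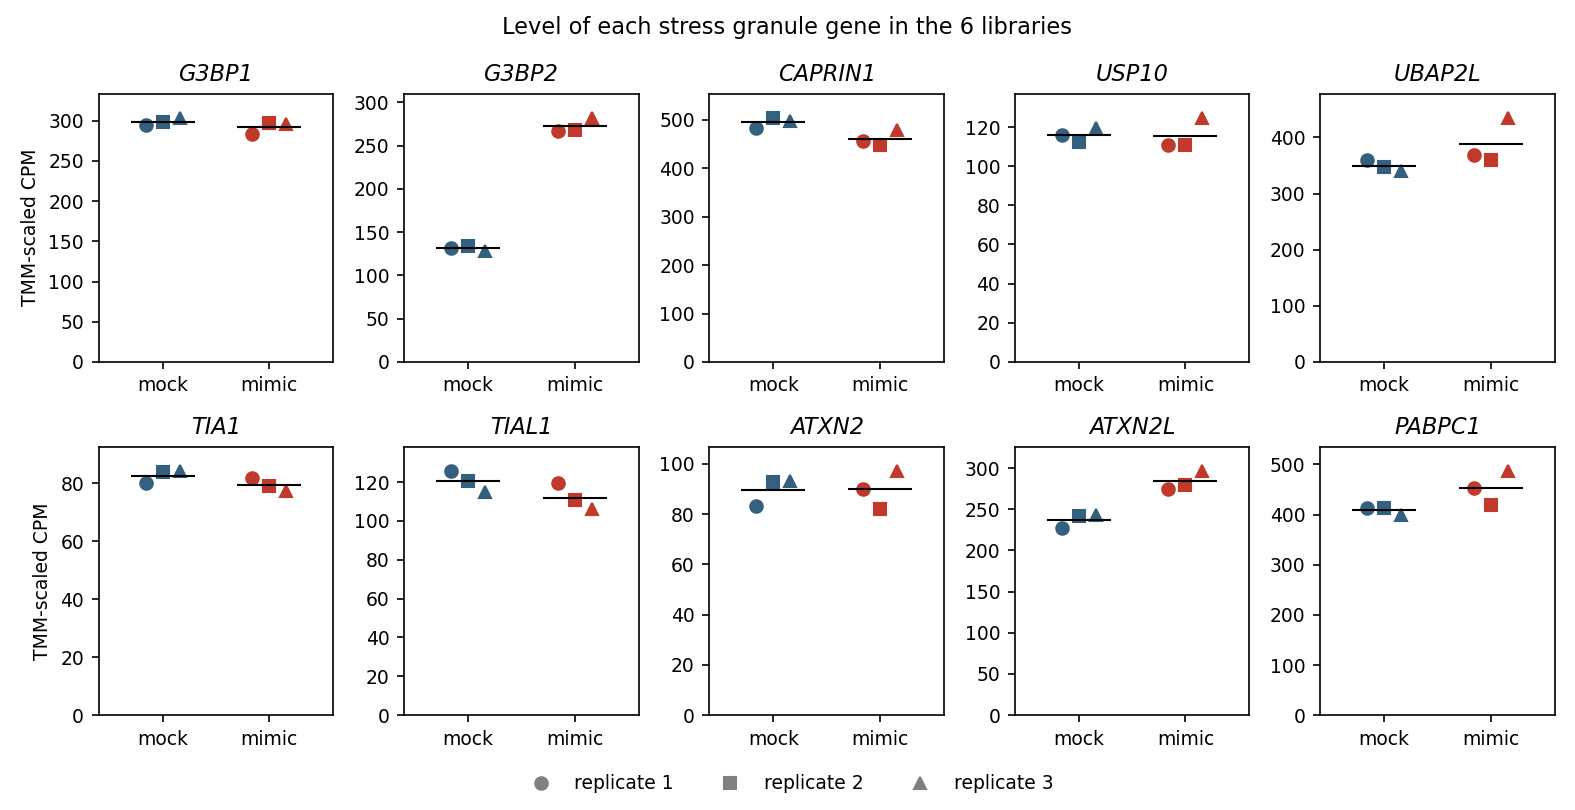
TMM-scaled CPM (y axes from 0) of the 10 genes in the 3 mock (blue) and 3 mimic (red) libraries. Lines are group means and symbols are replicates. The replicate numbers are not stated to pair libraries. G3BP2 is the gene with a wide gap, and mimic replicate 3 (triangle) is the highest of all 6 libraries in 6 of the 10 genes.

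Counted together, edgeR called 3 of 10 members higher and 0 lower at an adjusted p under 0.05 of its quasi-likelihood test, where 6.80% of all tested genes rose, 6.19% fell and 13.0% were called in either direction. At an unadjusted p under 0.05 of the same test, CAPRIN1 was lower, and G3BP2, ATXN2L, PABPC1 and UBAP2L were higher. The share of all tested genes at that limit is not given here. The groups did not overlap in 5 of 10 members, with 4 higher and 1 lower in the mimic group, where 28.3% of all tested genes did not overlap, 14.4% higher and 13.9% lower. DESeq2's Wald test called 2 members as higher and 0 as lower, G3BP2 and ATXN2L. It called 8.70% of the 11673 genes to which it gave an adjusted p, a smaller set than the 15607 behind the edgeR shares. Since the members were chosen with this comparison in view, nothing is read from these counts. The median log2 fold change of the members was −0.00, near the median of 0.00 over all tested genes, with 4 values above and 6 below 0. Apart from G3BP2, the members lay between −0.10 and 0.26.

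**Figure D4:**
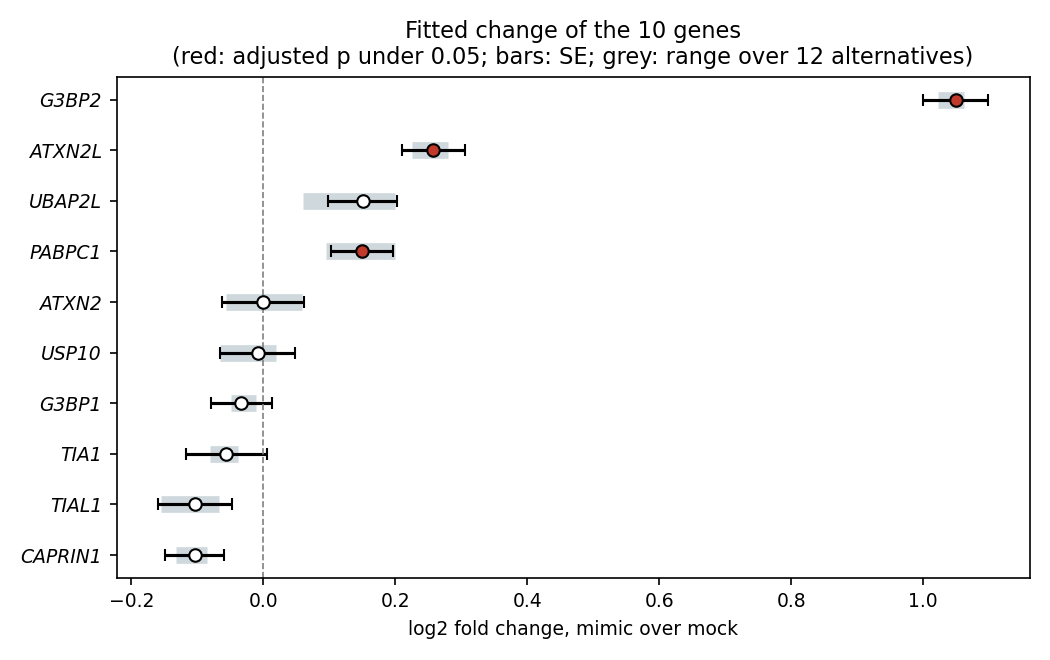
Log2 fold change of each of the 10 genes, mimic over mock, with its SE (bars) and the range over 12 alternatives (grey); red points were called at an adjusted p under 0.05. G3BP2 stands at 1.05, ATXN2L at 0.26 and PABPC1 at 0.15, and the grey ranges of ATXN2 and USP10 cross 0.

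The libraries held 6079420 to 7651046 counts, and the members 491 to 3626 counts per library. Mimic replicate 3 lay at −18.9 on the second principal component, with mimic replicates 1 and 2 at 8.44 and 13.6, and was the highest mimic library in 7 of 10 members against 36.5% of all tested genes. It was the highest of all 6 libraries in 6 members against 20.8% of all genes. Its part in the values of UBAP2L and PABPC1 is given above by leaving it out. Without it, 2 members rose (G3BP2 and ATXN2L) and CAPRIN1 fell. That fit called 1080 genes as higher and 981 as lower in all, against 1061 and 966 in the main test. Of 6 markers of the line 5 were detected (NEFM, VIM, PAX2, HOXA9 and HOXC10), NEFL had no counts, and 9 markers of leukocytes, endothelium, liver and squamous epithelium had at most 4 counts in a library. In such bulk libraries, fewer cells with an mRNA and less of it per cell cannot be told apart.

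The other genes of the pathway were taken from 7 lists by role, which together held 141 genes, of which 136 were tested. The lists were written with earlier results of these libraries in view, so their counts describe the libraries. Of the tested genes, 15 rose and 15 fell, with a median log2 fold change of −0.01 and a range from −1.20 to 0.32. That makes 22.1% called, beside 13.0% of all tested genes. The count fell to 5 risen and 11 fallen with DESeq2, to 6 and 12 without mimic replicate 1, to 4 and 12 without mock replicate 2 and to 3 and 11 without mock replicate 3. Of the 136 genes 2 held GCCGGGT in the longest 3′ UTR, 1 of the 15 risen genes (EIF3F) and 0 of the 15 fallen genes among them. Over all tested genes with a 3′ UTR, 12.6% of the 634 with the site fell and 6.72% of the 12381 without it, and nothing is read from so few listed genes.

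RNA-binding proteins found in stress granules were mixed in direction, with 4 risen and 5 fallen of 44 tested and a median of −0.03. FMR1, which encodes the fragile X protein FMRP, fell from 183 ± 13.1 to 148 ± 10.2 CPM (log2 fold change −0.31 ± 0.05, adjusted p = 1.38e-05 by edgeR). CPEB4, a protein that binds cytoplasmic polyadenylation elements, fell from 56.4 ± 3.44 to 44.2 ± 2.78 CPM. SERBP1, an mRNA- and ribosome-binding protein, rose from 556 ± 11.9 to 621 ± 11.7 CPM, and FAM120A, an RNA-binding scaffold, fell from 224 ± 7.38 to 199 ± 8.21 CPM. FMR1 and CPEB4 were called in all 12 alternatives. SERBP1 lost its call without mimic replicate 1 or mock replicate 1, and FAM120A without mimic replicate 1 or mock replicate 3. Among further called genes of the list, PARP12 (lower) and FXR2, YBX1 and HNRNPA1 (higher) each lost the call in 3 to 6 alternatives.

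No paralog of the members was called among 6 tested, and the 2 with the smallest p are given as values. PABPC1L, a poly(A)-binding protein of the PABPC1 family, had 88.3 ± 1.13 CPM in the mimic and 80.0 ± 1.03 CPM in the mock group (adjusted p = 0.108 by edgeR), and PABPN1, the nuclear poly(A)-binding protein, 192 ± 9.62 and 208 ± 4.50 CPM (adjusted p = 0.121 by edgeR). Both also had an unadjusted p under 0.05, as the only 2 of the 6. DESeq2 called neither.

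Among translation initiation factors, which stall with mRNA in stress granules, 4 rose and 2 fell of 23, with a median of 0.03. EIF3K, a peripheral subunit of the initiation factor eIF3, fell from 334 ± 20.5 to 259 ± 18.5 CPM (log2 fold change −0.37 ± 0.05, adjusted p = 9.62e-08 by edgeR). EIF3F, another eIF3 subunit, rose from 85.4 ± 3.03 to 106 ± 9.12 CPM. Both were called in all 12 alternatives. EIF3A, the large scaffold subunit of eIF3, rose from 560 ± 13.6 to 623 ± 23.3 CPM and EIF4B, a cofactor of the helicase eIF4A, from 229 ± 12.2 to 257 ± 8.37 CPM. EIF3A lost its call without mock replicate 2 or 3, and EIF4B with DESeq2 and without mimic replicate 2 or mock replicate 2 or 3. EIF4G1 (0.13) and EIF3I (−0.14), the other called factors, each lost the call in 8 alternatives.

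In the list of eIF2, the kinases that phosphorylate it to stop initiation, its phosphatase and its exchange factor, 1 gene rose and 1 fell of 17, with a median of −0.00. PPP1R15A, the stress-induced subunit that directs the phosphatase to eIF2, rose from 124 ± 2.12 to 142 ± 17.9 CPM, and the call ended in 5 alternatives, with a log2 fold change of 0.09 without mimic replicate 1 against 0.21 with it. PPP1CA, a catalytic subunit, fell from 174 ± 8.13 to 157 ± 5.62 CPM, and its call ended in 6 alternatives, the replicate block among them.

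Genes whose products clear or dissolve stress granules had 3 risen and 3 fallen members of 16, with a median of −0.01. HSPB8, a small heat shock protein that keeps misfolded proteins out of granules together with BAG3, fell from 39.8 ± 1.57 to 17.3 ± 1.49 CPM (log2 fold change −1.20 ± 0.10, adjusted p = 6.45e-16 by edgeR). BAG3, the co-chaperone that links HSPB8 to HSP70, fell from 80.2 ± 0.87 to 65.4 ± 2.60 CPM. PIAS4, a SUMO ligase, fell from 50.2 ± 1.61 to 39.6 ± 0.33 CPM, and HSPA8, the constitutive HSP70, rose from 1768 ± 11.4 to 2016 ± 117 CPM. All 4 were called in all 12 alternatives. HSPB8 and BAG3 were known to differ in these libraries when the list was written. SUMO2 and ULK1, the other risen genes, lost the call in 4 and 5 alternatives.

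Of 16 tested enzymes that modify stress granule proteins or their mRNA targets, or read those marks, 1 rose and 2 fell, with a median of 0.04. TNKS2, a tankyrase that attaches poly(ADP-ribose), fell from 179 ± 6.08 to 150 ± 3.09 CPM and YTHDF3, a reader of methylated adenosine in mRNA, from 85.1 ± 1.83 to 70.4 ± 4.62 CPM, both in all 12 alternatives. CSNK2A2, a catalytic subunit of casein kinase 2, rose from 122 ± 5.42 to 138 ± 8.41 CPM and lost the call in 4.

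In processing bodies, the neighbouring granules of mRNA decay, 2 scaffold genes rose and 2 fell of 14, with a median of −0.02. TNRC6C and TNRC6A, which connect Argonaute to the deadenylases, fell from 62.9 ± 5.52 to 42.2 ± 3.79 CPM (log2 fold change −0.58 ± 0.08, adjusted p = 2.22e-08 by edgeR) and from 257 ± 7.69 to 220 ± 12.5 CPM, both in all 12 alternatives. DCP2, the decapping enzyme, rose from 71.6 ± 2.46 to 82.1 ± 3.11 CPM and PATL1, a decapping activator, from 98.4 ± 2.27 to 112 ± 10.7 CPM. DCP2 lost its call in 5 alternatives and PATL1 in 4, with 0.11 against 0.19 without mimic replicate 3.

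**Figure D5:**
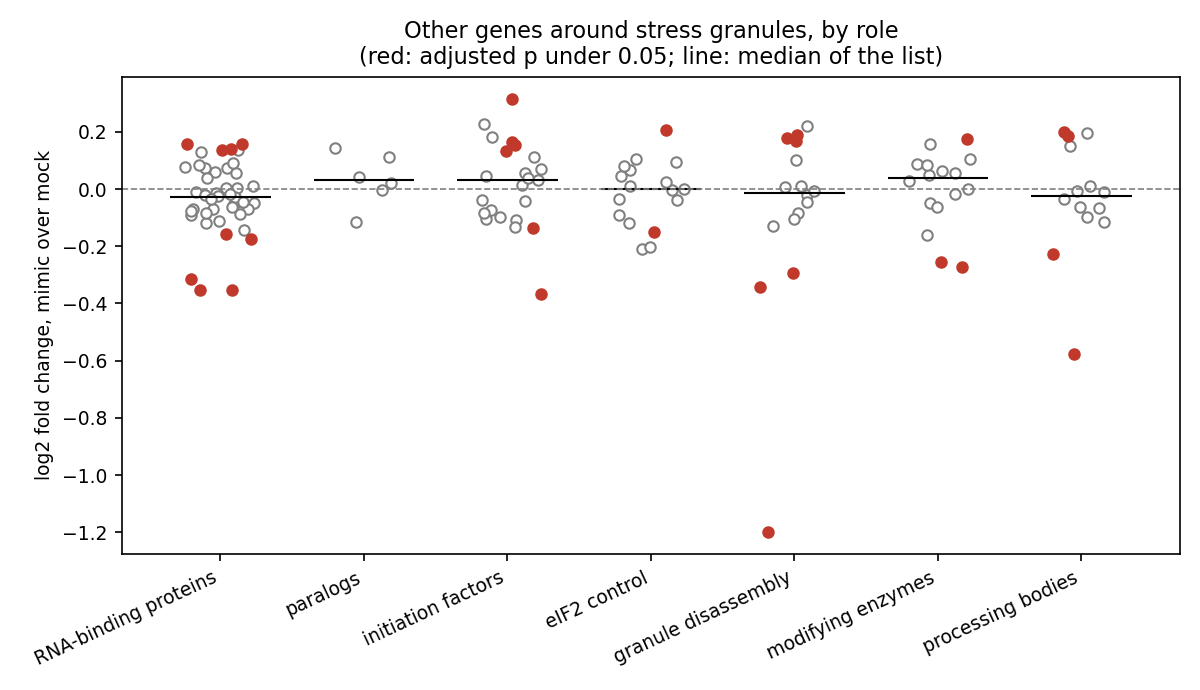
Log2 fold change, mimic over mock, of the tested genes of 7 lists by role; each point is a gene, red where called at an adjusted p under 0.05, and the line is the median of the list. The medians lie between −0.03 and 0.04, and HSPB8 at −1.20 is the farthest point.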

How the data were processed

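RNA-seq counts of 3 mimic and 3 mock libraries were used. The authors deposited whole-number counts per Ensembl gene, without normalization. Per the submitters' processing notes, STAR, edgeR and the build hg19 were used, versions unstated. Not given in the sources used here were the counting program, its annotation and its strand setting. A gene missing from a table was taken as 0. The labels call the transfections independent replicates.

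Counts were filtered with edgeR's filterByExpr, keeping 15607 of 26613 genes with 99.7% of all counts, and TMM factors were applied. Groups were compared by quasi-likelihood in edgeR (glmQLFit and glmQLFTest, robust, two-sided), and p-values were adjusted after Benjamini-Hochberg across the tested genes, with 0.05 as the limit. "Called" means past it, and SEs derive from the test statistic. Alternatives were DESeq2, library totals, upper quartile factors, no filter, a mean of at least 5 CPM, a replicate block and each library left out. The procedure was also run on simulated counts that gave all genes the same variation between replicates. Real genes need not share it, so no error rate for these libraries is read from that run. Versions were R 4.3.3, edgeR 4.0.16, DESeq2 1.42.0, Python 3.11.15 and scipy 1.17.1. At the depth of these libraries 3 counts correspond to 0.392 to 0.493 CPM, and PCR duplicates could not be removed. Libraries of the same group differed by 1.27 to 2.38 times the variation that sampling gives.

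Symbols came from a table of gene names, which matched 25141 genes. Lengths, 3′ UTRs of protein-coding transcripts with a stop codon, and sites came from GENCODE release 29 on GRCh38, another build than hg19. The members, the lists and the rules were chosen with earlier results of these data known. Named from each list were up to 4 called genes by smallest p, or 2 as values where none was called. Singled out beyond this rule, after their values were seen, were further called genes of 3 lists. A listed gene and a site are not reported here. Of the listed genes 5 were not in the fit. The IDs of TAF15, DCP1A and PABPC5 in the table of gene names were in none of the libraries, and those of HSPA1A and CSNK2B had at most 2 counts in a library. Whether their reads were counted under another ID is not known, so no level is read for them.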

Additional observations from a re-analysis of the deposited data

How the results depend on the processing

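G3BP2 and ATXN2L kept their calls under all 12 alternatives to the main test, and members called numbered 2 to 4 against 3. With DESeq2 the called genes numbered 1015 against 2027 in all, and 16 against 30 in the lists. Leaving out a library gave 1302 to 2061 genes in all, 2 to 4 members and 14 to 33 listed genes. ATXN2 changed sign with upper quartile factors (0.0062), with a mean of at least 5 CPM (0.0020), and without mimic replicate 2, mock replicate 2 and mock replicate 3 in turn, with a range of −0.0571 to 0.0583 over the left-out libraries. USP10 did so without mimic replicate 1, mimic replicate 2 and mock replicate 3 in turn (range −0.0662 to 0.0189). Neither gene was called in any of these. With the longest transcript as length the mock levels in CPM per kilobase were 117.2 for PABPC1, 120.6 for CAPRIN1, 87.2 for UBAP2L, 51.9 for ATXN2L, 29.2 for G3BP1, 37.8 for USP10, 26.9 for G3BP2, 23.7 for TIAL1, 17.8 for TIA1 and 19.1 for ATXN2. Per kilobase of exons the G3BP2 share was 61.7% in the mimic and 43.2% in the mock group. With any annotated 3′ UTR 1 member had a site, and with 6mer sites 1 (TIA1). Replicate numbers are not stated to pair the libraries, and no pairing was seen (correlations of deviations 0.04, −0.05 and −0.02, with 2 of 6 samples closest to their own number). So few libraries cannot exclude it. With the replicate block 1819 genes, 3 members and 26 listed genes were called, and the log2 fold change of G3BP2 stayed at 1.05. At this depth, with 3 libraries a group, a miss of the threshold does not show that a member did not differ.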

Other observations

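The neighbours of the members on the chromosome were also looked at, as the nearest tested gene beside each member, on each side and without overlap, 20 in all. Of these 1 rose and 3 fell, where 6.80% of all tested genes rose and 6.19% fell. USO1, which encodes the vesicle tether p115, lies on the opposite strand 68 bases from the farthest annotated start of G3BP2. It had 76.7 ± 1.13 CPM in the mimic and 71.1 ± 7.07 CPM in the mock group, with a log2 fold change of 0.11 ± 0.07 (adjusted p = 0.316 by edgeR). CDKL2, a kinase gene 12066 bases from the other end of G3BP2, had 9.21 ± 1.17 and 10.6 ± 0.27 CPM, with −0.20 ± 0.15 (adjusted p = 0.447 by edgeR). Neither neighbour of G3BP2 was called.

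TIAL1, which was not called, lies between 2 genes that fell. RGS10, a regulator of G protein signalling 29094 bases away, fell from 11.9 ± 1.34 to 5.33 ± 0.30 CPM (log2 fold change −1.16 ± 0.17), and BAG3, 54341 bases away on the other side, had −0.29 ± 0.06. The other called neighbours were TPM3, a tropomyosin gene next to UBAP2L, which rose from 248 ± 12.2 to 274 ± 16.8 CPM, and PCBP1-AS1, a non-coding gene next to TIA1, which fell from 111 ± 0.77 to 98.5 ± 0.33 CPM. These genes were singled out by position after the data were seen, and their link to the members was not tested.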
